A study of Mus musculus with 4 samples.

Results

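A set of 9 synaptic adhesion genes, the neurexins Nrxn2 and Nrxn3, the neuroligins Nlgn1, Nlgn2 and Nlgn3, and the leucine-rich repeat transmembrane genes Lrrtm1, Lrrtm2, Lrrtm3 and Lrrtm4, were followed in the hippocampus of Lsd1 KI mice. They were chosen by symbol, and all 9 were found by Ensembl gene ID among the 26328 genes listed in at least 1 sample. RNA-seq had been done on 2 WT and 2 KI samples of poly(A) RNA from whole hippocampus of male C57BL/6 mice. In the KI mice, which carry the Lsd1 SA/SA allele in every cell, the serine of LSD1 that PKCα phosphorylates is mutated. Littermates of 8 to 15 weeks were used for behavior in the same study, and the age and litters of the sequenced animals were not given separately. Nothing in the labels says whether a sample is 1 animal or a pool, so p-values measure the spread between these samples only.

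Neurexins sit in the presynaptic membrane and bind, across the synaptic cleft, to neuroligins and LRRTMs on the postsynaptic side. These trans-synaptic pairs line up the release machinery with the receptors. Nlgn1 protein is found mainly at excitatory synapses and Nlgn2 protein mainly at inhibitory synapses, whereas Nlgn3 protein occurs at both. The LRRTMs act at excitatory synapses, where LRRTM1 and LRRTM2 bind neurexins, and LRRTM4 binds heparan sulfate proteoglycans such as glypicans. LRRTM4 is known as a synapse organizer of dentate gyrus granule cells. The question of the comparison was whether the phosphorylation-defective LSD1 goes with other RNA levels in the hippocampus.

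Depth, worked out from the whole-read steps in the values, was lowest in WT replicate 2, with about 8830000 mapped reads, and between 13410000 and 14950000 in the other samples. Levels are RPKM, which scale reads to the exon length of a gene and to the mapped reads of a sample, so levels of different genes can be set side by side per length. Kdm1a, which encodes LSD1, was at 11.6 and 11.2 RPKM in WT against 10.97 and 11.2 in KI, and a point mutation leaves no mark on this level that could check the labels. KI replicate 1 stood apart in Ttr, a choroid plexus gene, with 51.3 RPKM against 8.13 to 13.8 RPKM in the other samples. The neuronal markers Rbfox3, Syn1, Snap25, Slc17a7 and Camk2a were abundant in every sample, with summed levels from 1509 to 1576 RPKM.

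All 9 adhesion genes were expressed and entered the comparison. The order of their levels was nearly the same in every sample, from Nlgn2 at 44.7 ± 1.6 RPKM down to Lrrtm3 at 4.24 ± 0.33 RPKM (SD over the 4 samples), a 10.6-fold span. Between them came Lrrtm1 (29.6 ± 2.1 RPKM), Nrxn2 (22.5 ± 0.6 RPKM), Nrxn3 (19.7 ± 0.9 RPKM), Nlgn1 (15.9 ± 1.2 RPKM), Nlgn3 (15.3 ± 1.0 RPKM), Lrrtm2 (11.5 ± 1.0 RPKM) and Lrrtm4 (6.98 ± 1.31 RPKM). Each gene stood above the next one in 4 of 4 samples with no overlap of their ranges, except that Nlgn1 exceeded Nlgn3 in 2 of 4 samples and their ranges overlapped. Among the 18436 genes tested, Nlgn2 stood at the 92.9th percentile of mean level and Lrrtm3 at the 41.8th. The genes rested on 168 to 4701 reads per sample, which gives counting errors between 1.46% and 7.72%. Counting error covers the sampling of reads only, not the spread between animals or libraries.

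**Figure D1:**
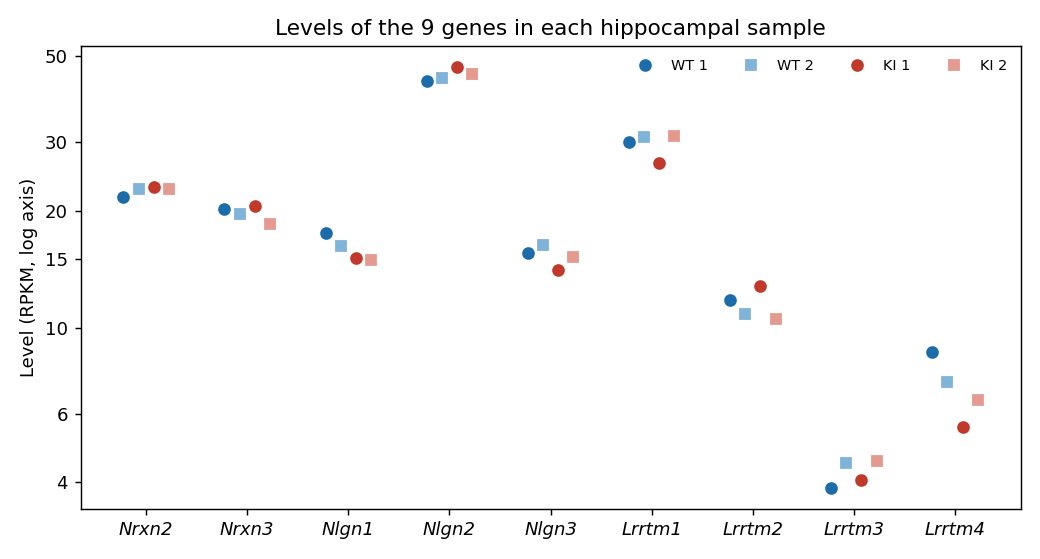
Level in RPKM on a log axis of each of the 9 genes in each sample, with WT in blue, KI in red, replicate 1 as circles and replicate 2 as squares. Nlgn2 is highest and Lrrtm3 lowest in all 4 samples, and the KI points lie below the WT points for Nlgn1, Nlgn3 and Lrrtm4 and above them for Nlgn2.

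Compared with WT, 0 of the 9 genes passed the threshold in KI (limma adjusted p under 0.1, with a fold change of 1.2 or more), as did 0 of all 18436 genes tested, a background of 0%. The study itself used edgeR and did select higher and lower genes from the same samples, so the 0 belongs to this limma fit on RPKM. Its text names Nlgn1, Nlgn2 and Nlgn3 among postsynaptic genes without a change in expression. The adjusted p of the 9 genes ran from 0.490 to 0.946 in limma. Without adjustment, 1 of them, Lrrtm4, had a limma p under 0.05, against 9.62% of all genes tested (3.33% lower and 6.30% higher in KI). Fold changes are differences of log2(RPKM + 1), a scale that understates the change of genes with low RPKM. Their median over the 9 genes was -0.022, beside 0.013 over all genes tested, and 8 of the 9 were smaller than 1.2-fold. They lay below 0 in 5 of the 9 genes, beside 45.6% of all genes tested. Both KI values lay below both WT values in Lrrtm4, Nlgn1 and Nlgn3 and above them in Nlgn2, and the groups overlapped in the other 5 genes. Separation of this kind was found in 4 of the 9 genes, or 44.4%, and in 42.2% of all genes tested (18.1% lower and 24.0% higher in KI), so the share among the adhesion genes was near the background.

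**Figure D2:**
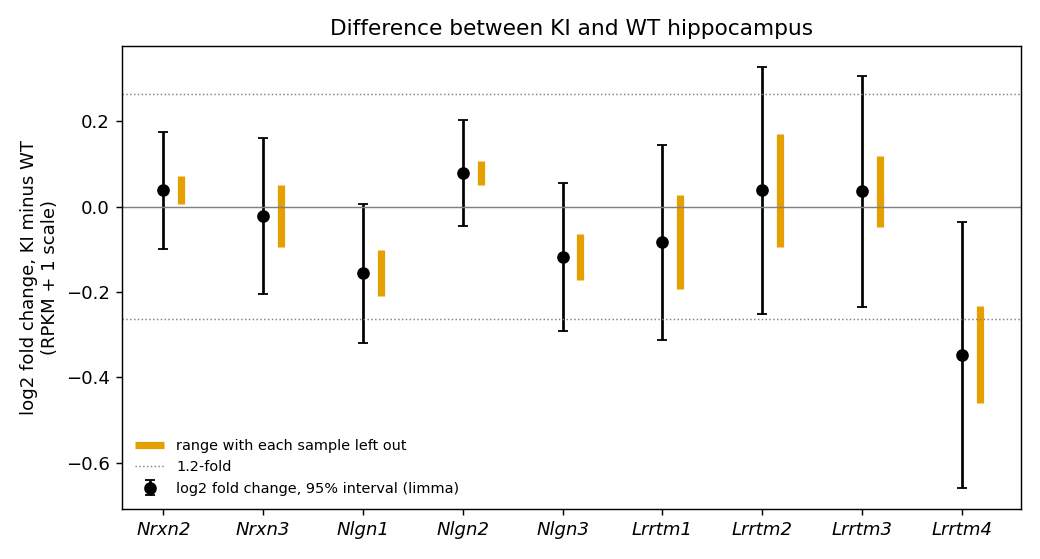
Log2 fold change of each gene, KI minus WT, on the RPKM + 1 scale, as points with the 95% interval from limma, with orange bars for the range of the value as each of the 4 samples was left out in turn. The interval of Lrrtm4 runs from -0.66 to -0.036 and is the only one without 0, and dotted lines mark 1.2-fold.

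Among the LRRTMs, Lrrtm4 (ENSMUSG00000052581, chromosome 6, 80018877 to 80810143, plus strand, GRCm38) showed the widest difference of the 9 genes. It was at 8.65 and 7.24 RPKM in WT replicates 1 and 2 and at 5.54 and 6.51 RPKM in KI replicates 1 and 2, on 713, 393, 490 and 598 reads. The WT samples were 1.19-fold apart and the KI samples 1.17-fold apart, both more than their counting errors of 3.75% to 5.04%, and the lower WT sample was the one with the lowest depth. The mean of KI, 6.03 ± 0.68 RPKM, was 0.758 times that of WT, 7.94 ± 0.99 RPKM (SD, n = 2 each). On the log2 scale the difference was -0.35 (standard error 0.12, limma adjusted p = 0.490). Differences as low as this or lower were found in 2.62% of all genes tested. Leaving out WT replicate 1 gave -0.23 and leaving out WT replicate 2 gave -0.46. Lrrtm4 is also in the list of lower genes that the study selected with edgeR on these 4 samples, so that list is no independent evidence of its direction.

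Lrrtm1 (ENSMUSG00000060780, chromosome 6, 77242689 to 77257791), the most abundant LRRTM, was at 30.03 and 30.9 RPKM in WT against 26.5 and 31.1 in KI. KI replicate 1 was the lowest sample and KI replicate 2 the highest, so the groups overlapped. The log2 fold change was -0.084 (95% interval -0.31 to 0.14), and 0.026 without KI replicate 1. Lrrtm2 (ENSMUSG00000071862, chromosome 18, 35209003 to 35215024), a high-affinity neurexin ligand, was at 11.8 and 10.8 RPKM in WT against 12.8 and 10.5 in KI. Here too a KI sample lay at each end of the range, and the log2 fold change of 0.038 (95% interval -0.25 to 0.33) turned to -0.095 without KI replicate 1 and to -0.018 without WT replicate 2. Lrrtm3 (ENSMUSG00000042846, chromosome 10, 63928472 to 64090277) was at 3.88 and 4.48 RPKM in WT against 4.06 and 4.55 in KI, with interleaved groups. It rested on the fewest reads, 221 and 168 in WT and 248 and 289 in KI, and its log2 fold change of 0.036 (95% interval -0.23 to 0.31) turned to -0.048 without WT replicate 1 and to -0.031 without KI replicate 2.

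Each of these 3 genes lies within an alpha-catenin gene on the opposite strand, Lrrtm1 in Ctnna2, Lrrtm2 in Ctnna1 and Lrrtm3 in Ctnna3. Use of strand in counting was not stated, and without it reads from both strands cannot be told apart. The host Ctnna2 was at 16.99 and 17.6 RPKM in WT against 17.2 and 16.7 in KI, with overlapping groups. Ctnna1 was at 16.8 and 17.7 RPKM in WT against 20.1 and 17.6 in KI, and like Lrrtm2 it was highest in KI replicate 1. Ctnna3 was near 0, between 0.074 and 0.154 RPKM in the 4 samples.

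As a share of the summed RPKM of the 4 LRRTMs, Lrrtm4 made up 15.9% and 13.5% in WT and 11.3% and 12.4% in KI. The shares of Lrrtm1, Lrrtm2 and Lrrtm3 overlapped between the groups, from 54.2% to 59.02%, from 19.97% to 26.2% and from 7.13% to 8.64%. Ratios of this kind are taken within a sample and do not depend on how samples were scaled. The ratio of Lrrtm4 to Lrrtm1 was 0.288 and 0.234 in WT and 0.209 and 0.210 in KI, and that of Lrrtm4 to Lrrtm2 was 0.734 and 0.669 in WT and 0.432 and 0.619 in KI. Both were lower in 2 of 2 KI samples, by 0.31 and 0.44 on the log2 scale. The exact two-sided permutation p was 0.33 for each, the smallest that 2 against 2 samples allow (adjusted over the 4 ratios computed, 0.444, exact permutation test). Without WT replicate 1 the difference for Lrrtm1 was -0.16, and for Lrrtm2 it was -0.18 without KI replicate 1 and -0.70 without KI replicate 2.

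The neuroligins differed among themselves in direction. Nlgn1 (ENSMUSG00000063887, chromosome 3, 25426215 to 26332460), which acts mainly at excitatory synapses, was at 17.5 and 16.2 RPKM in WT against 15.1 and 14.9 in KI. The KI samples nearly coincided and lay below both WT samples, with means of 16.9 ± 0.93 and 15.01 ± 0.09 RPKM (SD, n = 2 each). Its log2 fold change of -0.16 had a 95% interval of -0.32 to 0.0068 (adjusted p = 0.520 from limma), and ran from -0.21 to -0.10 as samples were left out. Nlgn3 (ENSMUSG00000031302, chromosome X, 101299168 to 101325963) was at 15.6 and 16.3 RPKM in WT against 14.0 and 15.2 in KI. Both KI values were lower, but KI replicate 2 was closer to WT replicate 1 than to KI replicate 1, and the log2 fold change was -0.12 (95% interval -0.29 to 0.056, adjusted p = 0.616 from limma). An overlapping transcript on the same strand, Gm21986, covers most of the Nlgn3 gene.

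Nlgn2 (ENSMUSG00000051790, chromosome 11, 69823122 to 69837784), the neuroligin of inhibitory synapses, was the one gene of the 9 with both KI values higher. It was at 43.1 and 43.9 RPKM in WT against 46.9 and 45.1 in KI. The gap between the groups was small, with a ratio of means of 1.06 and a log2 fold change of 0.079 (95% interval -0.046 to 0.20, adjusted p = 0.641 from limma). As a share of the 3 neuroligins, Nlgn2 made up 56.6% and 57.4% in WT and 61.7% and 59.9% in KI, and Nlgn1 made up 23.0% and 21.2% in WT and 19.8% and 19.9% in KI. The summed level of the neuroligins was close between the groups, at 76.2 and 76.4 RPKM in WT against 76 and 75.3 in KI. The ratio of Nlgn1 to Nlgn2 was 0.406 and 0.369 in WT and 0.322 and 0.331 in KI, lower in 2 of 2 KI samples by 0.25 on the log2 scale. The exact two-sided permutation p was 0.33, again the smallest possible, and the log2 difference ran from -0.32 to -0.18 as samples were left out.

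**Figure D3:**
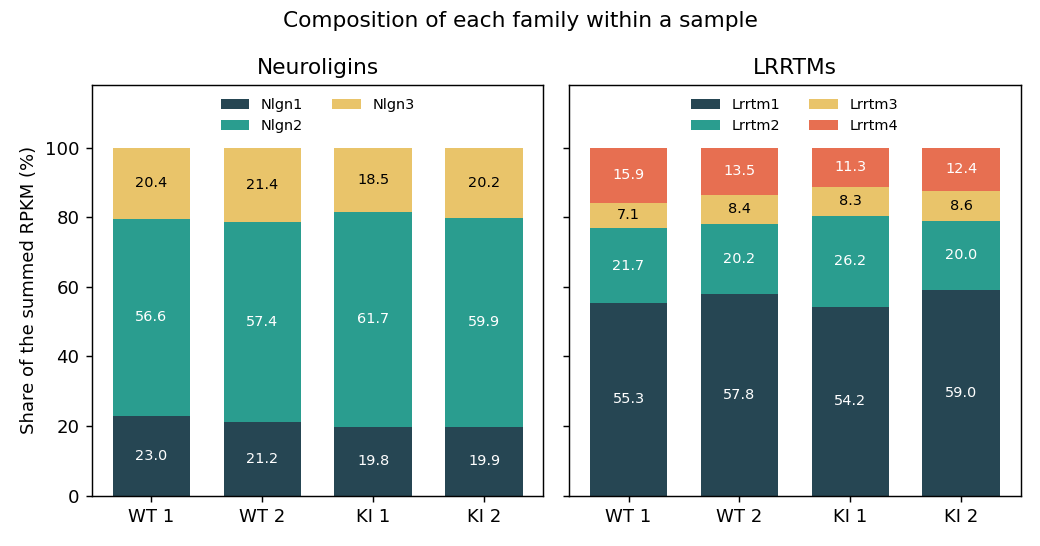
Stacked bars of the share in percent of the summed RPKM that each neuroligin (left) and each LRRTM (right) took within each sample. The Nlgn2 share is 56.6% and 57.4% in WT and 61.7% and 59.9% in KI, and the Lrrtm4 share is 15.9% and 13.5% in WT and 11.3% and 12.4% in KI.

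The neurexins showed little difference between the groups. Nrxn2 (ENSMUSG00000033768, chromosome 19, 6418731 to 6544169) was at 21.7 and 22.8 RPKM in WT against 23.0 and 22.8 in KI, on at least 2777 reads per sample. WT replicate 2 matched the KI samples, and the log2 fold change was 0.038 (95% interval -0.099 to 0.18). Nrxn3 (ENSMUSG00000066392, chromosome 12, 88722876 to 90334935) was at 20.2 and 19.6 RPKM in WT against 20.6 and 18.5 in KI. Its KI samples enclosed the WT samples, and the log2 fold change of -0.022 (95% interval -0.21 to 0.16) turned to 0.051 without KI replicate 2. The ratio of Nrxn3 to Nrxn2 was 0.894 ± 0.050 in WT and 0.856 ± 0.059 in KI (SD, n = 2 each, exact permutation p = 0.667). Neurexins are made as long alpha and short beta forms with many spliced versions. The values are sums over all forms of a gene, so a shift between forms was not measured here.

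Lrrtm4 was lower together with markers of dentate gyrus granule cells, the cell type in which LRRTM4 is best known. Of 10 such markers, 8 had both KI values below both WT values, 0 had both above, and 2 overlapped, beside 18.1% lower and 24.0% higher of all genes tested. Their summed level was 165.6 and 164.4 RPKM in WT and 113.0 and 135.2 RPKM in KI, a ratio of means of 0.752. Prox1, the transcription factor that specifies granule cells, was at 17.3 and 16.9 RPKM in WT against 10.2 and 13.1 in KI. Dsp, which encodes desmoplakin, was at 10.01 and 9.73 RPKM in WT against 5.03 and 7.46 in KI. In both, as in Lrrtm4, KI replicate 1 was the lowest sample. Of the 10 markers, 0 passed the threshold in limma, and 7 are in the study's own list of lower genes, so their direction is not independent of that list. The markers were also chosen with earlier results of these data known. Their share beside that of all genes is thus a description only. In bulk tissue, a smaller part of granule cells in the sample, for whatever reason, and less RNA per granule cell cannot be told apart.

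Within a sample, Lrrtm4 amounted to 5.22% and 4.41% of the summed dentate markers in WT and to 4.90% and 4.81% in KI. The groups thus overlapped, with a log2 difference of 0.019 (exact permutation p = 1.0), and this measure was added after the values were seen. It went from -0.10 without WT replicate 2 to 0.14 without WT replicate 1. Since the dentate sum itself was lower in KI, a gene with a smaller difference comes out higher against it by construction. Likewise, a gene with a ratio of means near the 0.752 of the sum comes out about level, as Lrrtm4 does with 0.758. Such a level ratio, here or in the partner genes below, does not tie a gene to granule cells.

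**Figure D4:**
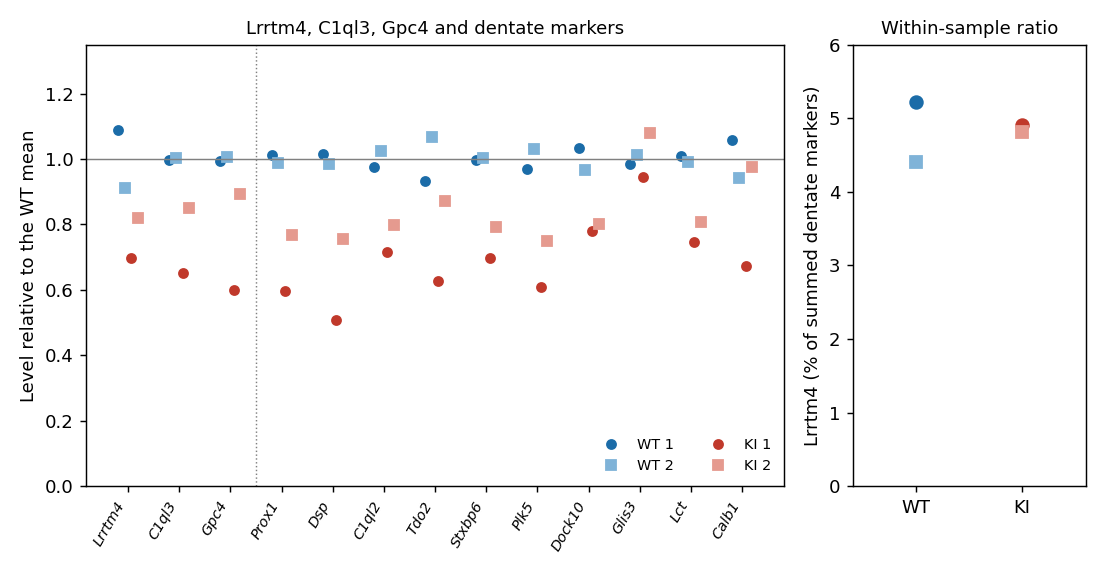
Left, level of Lrrtm4, C1ql3, Gpc4 and 10 dentate granule cell markers in each sample relative to the mean of the WT samples; right, Lrrtm4 in percent of the summed RPKM of the 10 markers. Most KI points on the left lie below 1 with KI replicate 1 lowest, whereas on the right the KI samples at 4.90% and 4.81% lie between the WT samples at 5.22% and 4.41%.

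The means of the other marker sums were closer to WT, except for choroid plexus, but the KI samples differed from each other in some. The CA1 sum was 169.6 and 172.3 RPKM in WT, and the KI samples lay on either side, with 157.0 in replicate 1 and 193.6 in replicate 2. The oligodendrocyte sum was 809.9 and 929.8 RPKM in WT, and it was highest in KI replicate 1 with 1026 and lowest in KI replicate 2 with 775.3. In both of these lists KI replicate 1, the lowest sample for Lrrtm4 and the dentate sum, and KI replicate 2 thus lay outside the WT values, on opposite sides. As ratios of the mean in KI to that in WT, the sums came to 1.03 for CA1 pyramidal cells, 1.03 for CA3 pyramidal cells, 0.973 for inhibitory interneurons, 1.06 for astrocytes, 1.04 for oligodendrocytes, 1.04 for oligodendrocyte precursors, 1.01 for microglia, 1.05 for endothelial cells and 0.973 for the neuronal list. A sum follows its most abundant genes, as Sst in the interneuron list, which was lower in both KI samples. Of the 7 interneuron genes, 3 (Slc32a1, Pvalb and Vip) were higher in both KI samples and 1 was lower. Of all genes tested, 24.0% were higher and 18.1% lower in this way. The choroid plexus list reached 2.29, carried by Ttr in KI replicate 1. In this list Kl was higher in both KI samples, at 7.05 and 6.72 RPKM against 4.87 and 5.14 in WT. So was Aqp1, which was near 0, whereas Ttr and Folr1 overlapped between the groups. The groups did not overlap in the sums of astrocytes and oligodendrocyte precursors, which were higher, and of the neuronal list, which was lower, with 1570 RPKM or more in WT and 1552 or less in KI. Of its 5 genes, Syn1, Slc17a7 and Camk2a were lower in both KI samples, beside 18.1% of all genes tested. Their differences were small, with ratios of means of 0.983, 0.948 and 0.957. Snap25 and Rbfox3 overlapped between the groups, with log2 fold changes of 0.044 and -0.0099. The part of these marker differences in the values of Nlgn1 and Nlgn3 was not tested.

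Upstream sequence is shown for 1 start site each of Lrrtm4 and Nlgn1, which were lower in both KI samples, and of Nlgn2, which was higher. The windows are the 250 bases before a RefSeq start (GRCm38.p6), written in the direction of the gene, and overlap no annotated exon. They lie at chr6:80018627-80018876 on the plus strand (Lrrtm4), chr3:26153987-26154236 on the minus strand (Nlgn1, an internal start) and chr11:69837785-69838034 on the minus strand (Nlgn2). LSD1 is a partner of the repressor REST, which binds RE1 elements, and of CLOCK:BMAL1, which binds E-boxes. Capitals mark matches, on either strand, to the E-box CACGTG, the left part of RE1, TTCAGCACC, or its right part, GGACAGC, which do not overlap in these windows.
Lrrtm4: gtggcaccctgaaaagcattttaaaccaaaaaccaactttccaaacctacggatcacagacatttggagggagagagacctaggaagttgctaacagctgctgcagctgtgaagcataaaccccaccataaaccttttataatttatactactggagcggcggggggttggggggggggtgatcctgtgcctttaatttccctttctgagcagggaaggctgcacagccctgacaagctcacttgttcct
Nlgn1: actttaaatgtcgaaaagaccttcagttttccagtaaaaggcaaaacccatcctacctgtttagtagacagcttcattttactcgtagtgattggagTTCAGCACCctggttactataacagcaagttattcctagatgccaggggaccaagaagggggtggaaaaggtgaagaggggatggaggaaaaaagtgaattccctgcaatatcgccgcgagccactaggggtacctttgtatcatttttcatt
Nlgn2: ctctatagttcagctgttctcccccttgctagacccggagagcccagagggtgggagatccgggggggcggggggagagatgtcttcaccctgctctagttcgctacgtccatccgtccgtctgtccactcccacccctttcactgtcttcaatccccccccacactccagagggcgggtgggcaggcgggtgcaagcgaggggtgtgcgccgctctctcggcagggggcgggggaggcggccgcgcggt
Of the 9 genes, 6 had entries, with 10 windows. Those of Nlgn3, Nrxn2 and Lrrtm2 were not analysed here. Only the Nlgn1 window shown held a match, to the left part of RE1, which 0.301% of all 32851 windows hold. The E-box is held by 6.02% of all windows and the right part of RE1 by 5.28%. The Lrrtm4 window shown held 3 CpG dinucleotides, the Nlgn1 window shown 5 and the Nlgn2 window 18, beside a median of 6 over all windows. The other windows of Lrrtm4 and Nlgn1, which overlap annotated exons, held 8 and 9, so the count depends on the start site. A match is a string of letters and not a measured binding site.

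The partners of these genes were taken from 6 lists with 81 genes, 76 of which were tested. Of the 76, 0 passed the threshold in limma in either direction, and 11 (14.5%) had an unadjusted p under 0.05, against 9.62% of all genes tested. The groups did not overlap in 45 of them, 27 lower and 18 higher in KI, or 59.2% against 42.2% of all genes. By direction these were 35.5% lower and 23.7% higher, against 18.1% and 24.0% of all genes, and the counts of single lists below stand against the same shares. Of the 81 genes, 3 are in the study's own list of lower genes from these samples. The lists were chosen with earlier results of these data known, so these shares are a description only.

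**Figure D5:**
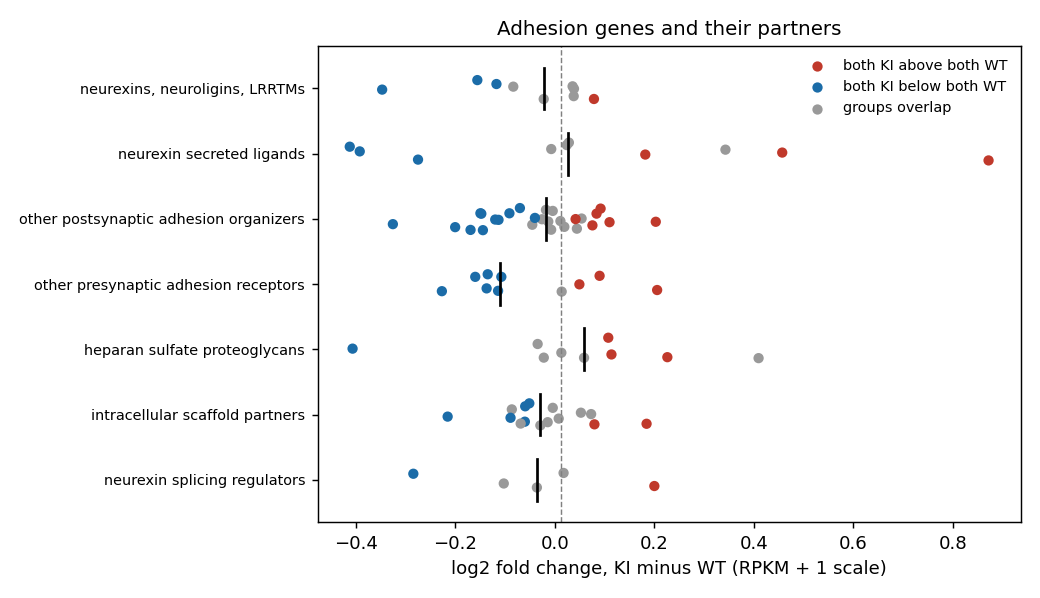
Log2 fold change, KI minus WT on the RPKM + 1 scale, of each tested gene in the 9 adhesion genes and in 6 lists of partners, with blue points where both KI values lie below both WT values, red where both lie above, and grey where they overlap. Black bars are list medians, from -0.11 for the list named other presynaptic adhesion receptors to 0.059 for the heparan sulfate proteoglycans. The dashed line is the median of all genes tested, 0.013.

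Secreted ligands of neurexins and related proteins differed in direction, with 3 of 10 tested genes lower and 3 higher in both KI samples. Cbln1, the cerebellin that bridges neurexins and delta glutamate receptors, was at 1.28 and 0.777 RPKM in WT against 2.00 and 3.53 in KI. Cbln4 was at 2.34 and 2.15 RPKM in WT against 2.59 and 4.52 in KI. In both the KI samples were far apart, with KI replicate 2 the highest, and adjusted p were 0.468 and 0.576 in limma. Cbln1 is in the list of higher genes that the study drew from these samples. C1ql3, a C1q-like synaptic organizer that binds Nrxn3, was at 39.0 and 39.2 RPKM in WT against 25.5 and 33.3 in KI (log2 fold change -0.41, adjusted p = 0.489 from limma). Its relative C1ql2, also one of the 10 dentate markers, was at 41.8 and 44.0 RPKM in WT against 30.7 and 34.2 in KI (log2 fold change -0.39, adjusted p = 0.336 from limma). Both are in the study's list of lower genes. C1ql3 amounted to 23.5% and 23.8% of the dentate sum in WT and to 22.5% and 24.6% in KI, so this ratio did not separate the groups. This follows from its ratio of means of 0.751, near the 0.752 of the sum.

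Of the heparan sulfate proteoglycans, 1 of 9 tested genes was lower and 3 were higher in both KI samples. Gpc4, the glypican known as a presynaptic ligand of LRRTM4, was at 12.1 and 12.3 RPKM in WT against 7.32 and 10.9 in KI. It was lower in 2 of 2 KI samples, though these were far apart (log2 fold change -0.41 ± 0.18 standard error, limma adjusted p = 0.552). Relative to the dentate sum it was at 7.30% and 7.46% in WT and 6.48% and 8.04% in KI, with overlapping groups. Its ratio of means, 0.747, was again near that of the sum. The syndecans Sdc4, with a log2 fold change of 0.23, and Sdc3, with 0.11, had both KI values above both WT values.

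The list named other presynaptic adhesion receptors holds latrophilins, teneurins and LAR-type phosphatases, and its name does not settle the side of the synapse for each gene. It had 6 of 10 genes lower and 3 higher in both KI samples, with a median log2 fold change of -0.11. Tenm2, a teneurin that binds latrophilins, was at 17.6 and 17.5 RPKM in WT against 14.7 and 15 in KI (log2 fold change -0.23, adjusted p = 0.399 from limma). Both groups were tight, and the gap was larger than the spread in either. Relative to the dentate sum Tenm2 was at 10.6% and 10.7% in WT and higher in KI, at 13.01% and 11.1%. Ptprf, a LAR-type phosphatase, went the other way, at 6.70 and 6.69 RPKM in WT and 8.01 and 7.73 RPKM in KI (adjusted p = 0.488 from limma). Tenm1 was at 1.83 and 1.84 RPKM in WT against 1.30 and 1.80 in KI.

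Of the other postsynaptic organizers, 11 of 27 tested genes were lower and 6 higher in both KI samples, with a median of -0.018. Lrfn2, the SALM1 adhesion protein that binds PSD-95, was at 8.03 and 8.84 RPKM in WT against 6.38 and 6.66 in KI (log2 fold change -0.33, adjusted p = 0.405 from limma). It is in the study's list of lower genes. Its ratio to the dentate sum overlapped between the groups, and its ratio of means, 0.773, was near that of the sum. Clstn2, a calsyntenin, had a log2 fold change of -0.20 and Flrt1, a latrophilin ligand, of 0.20.

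Intracellular scaffold partners had 5 of 15 genes lower and 2 higher in both KI samples. Lin7c, a PDZ protein of the CASK complex that binds the neurexin tail, had a log2 fold change of -0.22, its paralog Lin7a of 0.18 and Dlg3 of -0.089. The regulators of neurexin splicing, 5 genes, differed in direction among paralogs. Khdrbs2, which encodes the neurexin splicing factor SLM1, was at 4.83 and 5.42 RPKM in WT against 3.68 and 4.38 in KI (adjusted p = 0.516 from limma). Khdrbs3, which encodes SLM2, was at 89.0 and 90.0 RPKM in WT against 104.2 and 101.7 in KI (log2 fold change 0.20, adjusted p = 0.371 from limma). The Khdrbs3 values were tight in both groups and did not overlap.

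Among all genes tested, those whose pattern over the 4 samples was most like that of Lrrtm4 were Siva1, Mndal and ENSMUSG00000047116, which had no symbol in the annotation used. Likeness was the Euclidean distance between log2(RPKM + 1) profiles, each centred on its own mean, and came to 0.034, 0.044 and 0.052. Siva1 was at 5.91 and 5.07 RPKM in WT against 3.82 and 4.45 in KI. With 4 samples such a match is a description only.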

How the data were processed

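RNA-seq values of 2 WT and 2 KI hippocampal samples were used. Per the methods and processing notes, the authors aligned paired-end reads to mm10 with GSNAP and kept uniquely and properly mapped pairs. The deposited values are RPKM on genes of Ensembl release 74, 1 file per sample, not pooled. A gene absent from a file was given 0.

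Because the files hold RPKM and not counts, the edgeR analysis of the study was replaced by limma 3.58.1 (R 4.3.3) on log2(RPKM + 1) with a mean-variance trend, over 18436 genes that reached 0.5 RPKM in 2 or more samples, with Benjamini-Hochberg adjustment. It was tested on simulated data with larger changes than that of Lrrtm4, so power for changes as small as that was not tested. Reads per gene came from RPKM, depth and GENCODE M21 exon length (GRCm38, the build of mm10). They were whole for 6 of the 9 genes, and for the other 3 a length giving whole reads in all samples within 0.02 was used. Symbols and positions are from M21, promoters from RefSeq. Ratios were compared by exact permutation. Named were all 9 genes and up to 3 separated genes per partner list with the largest change, and the 3 genes with profiles nearest to Lrrtm4. C1ql2, host genes and single marker genes were named beyond this rule, after their values were seen. Members and lists were chosen with earlier results of these data known. Alternatives were another pseudocount, filters, scalings, no trend, a replicate block and leaving out each sample.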

Additional observations from a re-analysis of the deposited data

How the results depend on the processing

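With 0 genes past the threshold in the comparison as reported, the count over all genes was 1 with at least 10 reads in every sample, 20 without the mean-variance trend and 51 with a replicate block and at least 10 reads together, and 0 in the other alternatives; the cause was not tested. The count among the 9 adhesion genes and among their partners was 0 in every alternative run. With the replicate block alone it was 0 over all genes. WT and KI samples share only a number, and their deviations had a Pearson correlation of -0.025 across genes. The smallest adjusted p of Lrrtm4 in any alternative was 0.369 and the largest 0.742 (limma).

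Lrrtm4, Nlgn1, Nlgn2, Nlgn3 and Nrxn2 kept their direction in all 12 alternative fits. For most of these fits this was fixed in advance. The filters, the replicate block and the missing trend leave the fold change of a gene as it is. In Lrrtm4, Nlgn1, Nlgn2 and Nlgn3, whose groups did not overlap, leaving out a sample cannot reverse it. With a sample left out, fold changes ran from -0.095 to 0.051 for Nrxn3, from -0.19 to 0.026 for Lrrtm1, from -0.095 to 0.17 for Lrrtm2 and from -0.048 to 0.12 for Lrrtm3. The median over the 9 genes was -0.036 with median centring, -0.036 with quantile normalization and from -0.063 to -0.031 with a sample left out. Separated genes among the 9 ran from 4 to 8 with a sample left out, larger by construction. The log2 difference of the Nrxn3 to Nrxn2 ratio ran from -0.13 to 0.0070, and that of Lrrtm4 to the dentate sum from -0.10 to 0.14. Depth was lowest in WT replicate 2, where counting error reached 7.72% for Lrrtm3.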
